A study of Homo sapiens with 9 samples.

Results

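Cyclin-dependent kinase (CDK) inhibitors and D-type cyclins set how readily a cell leaves the G1 phase, and their transcripts were followed here in EPC2, a human line of esophageal epithelial cells that telomerase (hTERT) made immortal. The members are 10 genes taken by symbol, of 24672 genes in the deposited tables. They comprise 3 CIP/KIP inhibitors (CDKN1A, CDKN1B, CDKN1C), 4 CDKN2 genes (CDKN2A, CDKN2B, CDKN2C, CDKN2D) and 3 D-type cyclins (CCND1, CCND2, CCND3). They were counted in 18 of the 29800 transcript rows, and all 10 passed the filter on low counts. The ALI silenced group is 3 libraries of EPC2 cells with SPINK7 gene silencing, differentiated with their upper side in air, at an air-liquid interface (ALI). The ALI control group is 3 libraries of EPC2 cells with a non-silencing control (NSC), differentiated in the same way. The monolayer group is 3 libraries of NSC cells kept as an undifferentiated monolayer. All groups share this 1 line and a medium with bovine pituitary extract (50 ug/mL) and epidermal growth factor (1 ng/mL). ALI cells were moved from 0.09 mM to 1.8 mM calcium on day 2, were given air from day 7 and were collected on day 14, so air exposure, calcium and time in culture cannot be told apart in a comparison with monolayers. With a single silenced population named, loss of SPINK7 and effects of its construct cannot be told apart. Nothing in the labels ties libraries to separate cultures. The p-values therefore rest on differences between libraries that may be technical replicates.

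D-type cyclins activate CDK4 and CDK6, which phosphorylate the retinoblastoma protein (RB) and so free E2F transcription factors to switch on genes of DNA replication. INK4 proteins, made from the CDKN2 genes, bind CDK4 and CDK6 and block that step. CIP/KIP proteins act on CDK2 complexes as well, and can also help cyclin D and CDK4 to assemble. In stratified squamous epithelium, cells of the basal layer divide and cells that move upward leave the cycle as they differentiate.

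Libraries held 7641960 to 14009746 counts, and levels are given as CPM, counts scaled to a common library size. SPINK7, the silenced gene, was at 20.9, 38.6 and 32.7 CPM in ALI silenced libraries 1, 2 and 3, against 229, 261 and 225 CPM in ALI control libraries 1, 2 and 3. The squamous keratin gene KRT5 was at 7019 CPM or more in each of the 9 libraries. All 13 listed genes of squamous differentiation were higher in ALI control than in monolayer libraries. Of the 13, 7 were lower in ALI silenced than in ALI control libraries. Several of the 13, KRT1 and LOR among them, passed the low-count filter through ALI libraries alone. Of markers of other cells, 1 of 7 fibroblast genes (COL1A1), 1 of 6 leukocyte genes (CD68) and 1 of 4 endothelial genes (VWF) passed the filter, while PTPRC and LUM had no count in any library. The summed fibroblast list was at 20.7 to 45.6 CPM in ALI silenced, 12.2 to 49.2 CPM in ALI control and 50.1 to 186 CPM in monolayer libraries. The leukocyte list, nearly all CD68, was at 66.6 to 87.2, 53.2 to 69.7 and 15.7 to 29.5 CPM in those groups, and the endothelial list at 1.40 to 2.34, 3.03 to 9.62 and 0.304 to 0.567 CPM. A list of 7 stress genes read as a sign of RNA quality was at 200 to 271 CPM in ALI silenced, 151 to 181 CPM in ALI control and 391 to 903 CPM in monolayer libraries. Monolayer library 1 stood apart, with 903 CPM of the stress list against 399 and 391 in libraries 2 and 3. Its fibroblast list was at 186 CPM, against 52.9 and 50.1. The part of these lists in the results was not tested. ALI libraries numbered 2 in both arms stood apart from the other 4 on the second principal component (-25.5 and -78.5, against 14.3 to 55.0). They also held the least of the proliferation marker MKI67, which was at 106, 0.893 and 74.8 CPM in ALI silenced, 39.6, 0.757 and 42.1 CPM in ALI control, and 3.89, 13.9 and 11.1 CPM in monolayer libraries. Values below are given in the order of libraries 1, 2 and 3, and results that rest on the libraries numbered 2 are also given without them. Leaving them out was chosen with earlier results known, and more of all tested genes then passed in both contrasts. A lower adjusted p there is thus no added support for a call. In such bulk RNA, fewer cells of a kind and less RNA per cell cannot be told apart.

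None of the 10 genes passed the test between ALI silenced and ALI control libraries, and 5 of them passed it between ALI control and monolayer libraries. The INK4 genes CDKN2B and CDKN2C were higher after differentiation, by 3.08-fold and 11.1-fold. The CDKN2C value rests on 37 counts against 4. CDKN2C failed the low-count filter when ALI control and monolayer libraries alone were fitted. The CIP/KIP gene CDKN1A was lower by 1.85-fold, and the cyclins CCND2 and CCND3 were lower by 1.90-fold and 2.57-fold. Genes were tested with edgeR's quasi-likelihood F-test, and p-values were adjusted over 12806 genes with a threshold of 0.05. For silencing, 0 of 10 passed, against 0.929% of all tested genes (0.226% higher and 0.703% lower), and 0 of 10 had an unadjusted p under 0.05, against 9.16% of all. DESeq2 and limma-voom called 0 of 10 as well. The libraries of the ALI arms did not overlap for 1 of 10, which was lower, against 12.1% of all genes (5.76% higher and 6.34% lower). For differentiation, 2 were higher and 3 lower, against 20.3% of all genes higher and 20.2% lower, so that 5 of 10 is near the 40.5% of all tested genes that passed. An unadjusted p under 0.05 was reached by 6 of 10, against 50.0% of all genes. The ALI control and monolayer libraries did not overlap for 8 of 10 (3 higher and 5 lower), against 57.3% of all genes (27.3% higher and 29.9% lower). The median log2 fold change of the 10 was 0.14 for silencing, against 0.01 over all genes, and -0.46 for differentiation, against 0.03. Both contrasts use the ALI control libraries.

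**Figure D1:**
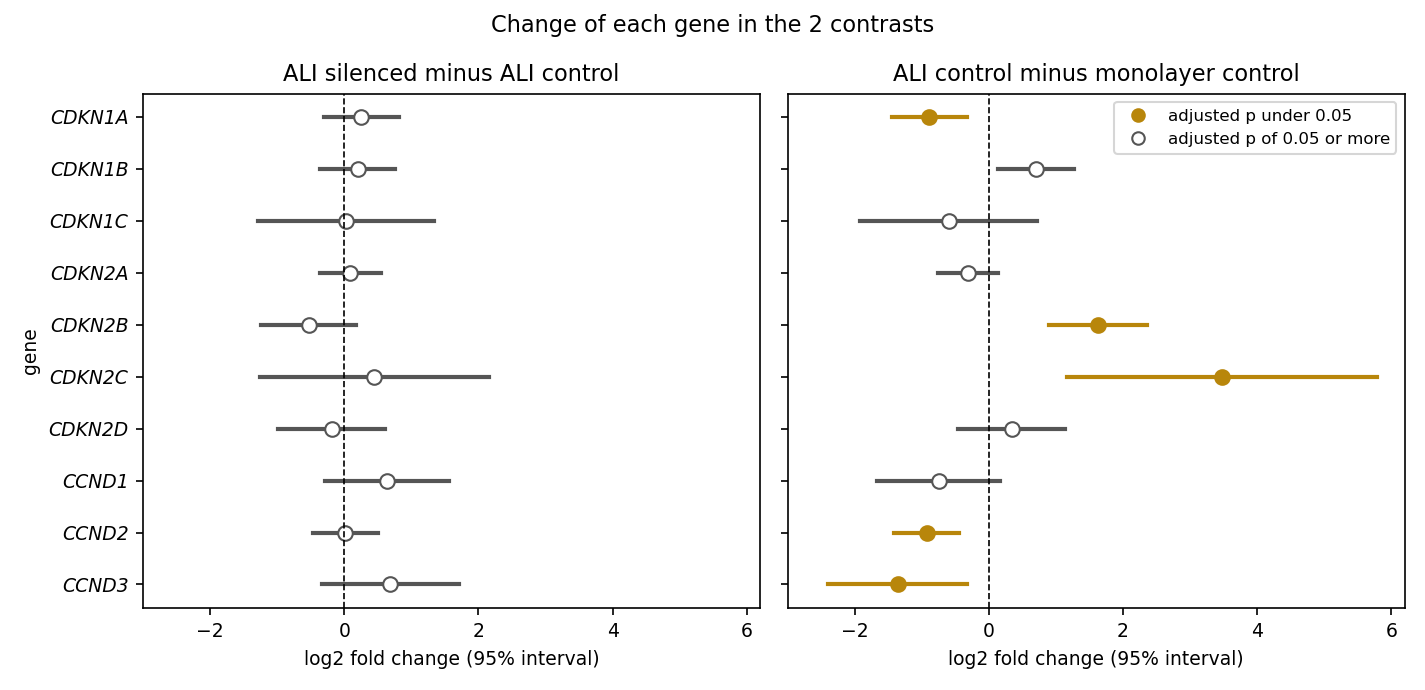
Log2 fold change of each gene (points) with its 95% interval (bars), for ALI silenced minus ALI control (left) and ALI control minus monolayer control (right), n = 3 libraries a group; filled points have an adjusted p under 0.05. On the left every interval spans 0; on the right the intervals of CDKN2B, CDKN2C and CDKN1B lie above 0, that of CDKN1B with an adjusted p of 0.0515, and those of CDKN1A, CCND2 and CCND3 lie below it.

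CDKN1A (chromosome 6, 36644237 to 36655116, plus strand, hg19) encodes p21, a CIP/KIP inhibitor that rises after DNA damage. It had 853, 1133 and 714 CPM in ALI silenced, 642, 865 and 757 CPM in ALI control, and 1257, 1499 and 1433 CPM in monolayer libraries. Every monolayer library lay above every ALI library, and the ALI arms overlapped. CDKN1A was thus lower in ALI control, at 755 ± 111 CPM, than in monolayer libraries, at 1396 ± 125 CPM (SD, n = 3 each), and its log2 fold change was -0.89 (SE 0.25, adjusted p = 0.0190). Leaving out ALI control library 1 (0.0623) or monolayer library 2 (0.0710) or 3 (0.0623) ended the call, and adjusted p was 0.00151 without both ALI libraries numbered 2. Summing monolayer libraries 2 and 3 also ended the call. Between ALI silenced and ALI control libraries the difference was 0.25 (95% interval -0.31 to 0.81, adjusted p = 0.784). Of its 4 transcript rows, 1 took 97.5 to 99.7% of the counts in every library.

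CDKN1B (chromosome 12, 12870302 to 12875305, plus strand) encodes p27, a CIP/KIP inhibitor whose protein level is largely set by its breakdown. It had 21.7, 34.0 and 34.5 CPM in ALI silenced, 25.2, 33.5 and 20.1 CPM in ALI control, and 16.4, 16.7 and 15.4 CPM in monolayer libraries. All 6 ALI libraries lay above all 3 monolayers. The log2 fold change of ALI control over monolayer was 0.70 (SE 0.26, adjusted p = 0.0515), just over the threshold. It passed with DESeq2 (0.0314), with DESeq2 size factors within edgeR (0.0485), and without ALI silenced library 1 (0.0399) or ALI control library 3 (0.0279). For silencing it was 0.20 (95% interval -0.37 to 0.76, adjusted p = 0.832). CDKN1C (chromosome 11, 2904448 to 2906995, minus strand), the imprinted gene of p57, was close to the limit of detection. It had 0.374, 1.24 and 0.234 CPM in ALI silenced, 0.536, 0.757 and 0.634 CPM in ALI control, and 1.06, 0.809 and 1.06 CPM in monolayer libraries, or 24, 16 and 33 counts in those groups. Library 2 was highest in both ALI arms, and ALI control lay below the monolayers. At 0.615 ± 0.543, 0.642 ± 0.111 and 0.979 ± 0.146 CPM in those groups (SD, n = 3 each), no difference was detectable at this depth, with adjusted p = 0.993 for silencing and 0.441 for differentiation.

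**Figure D2:**
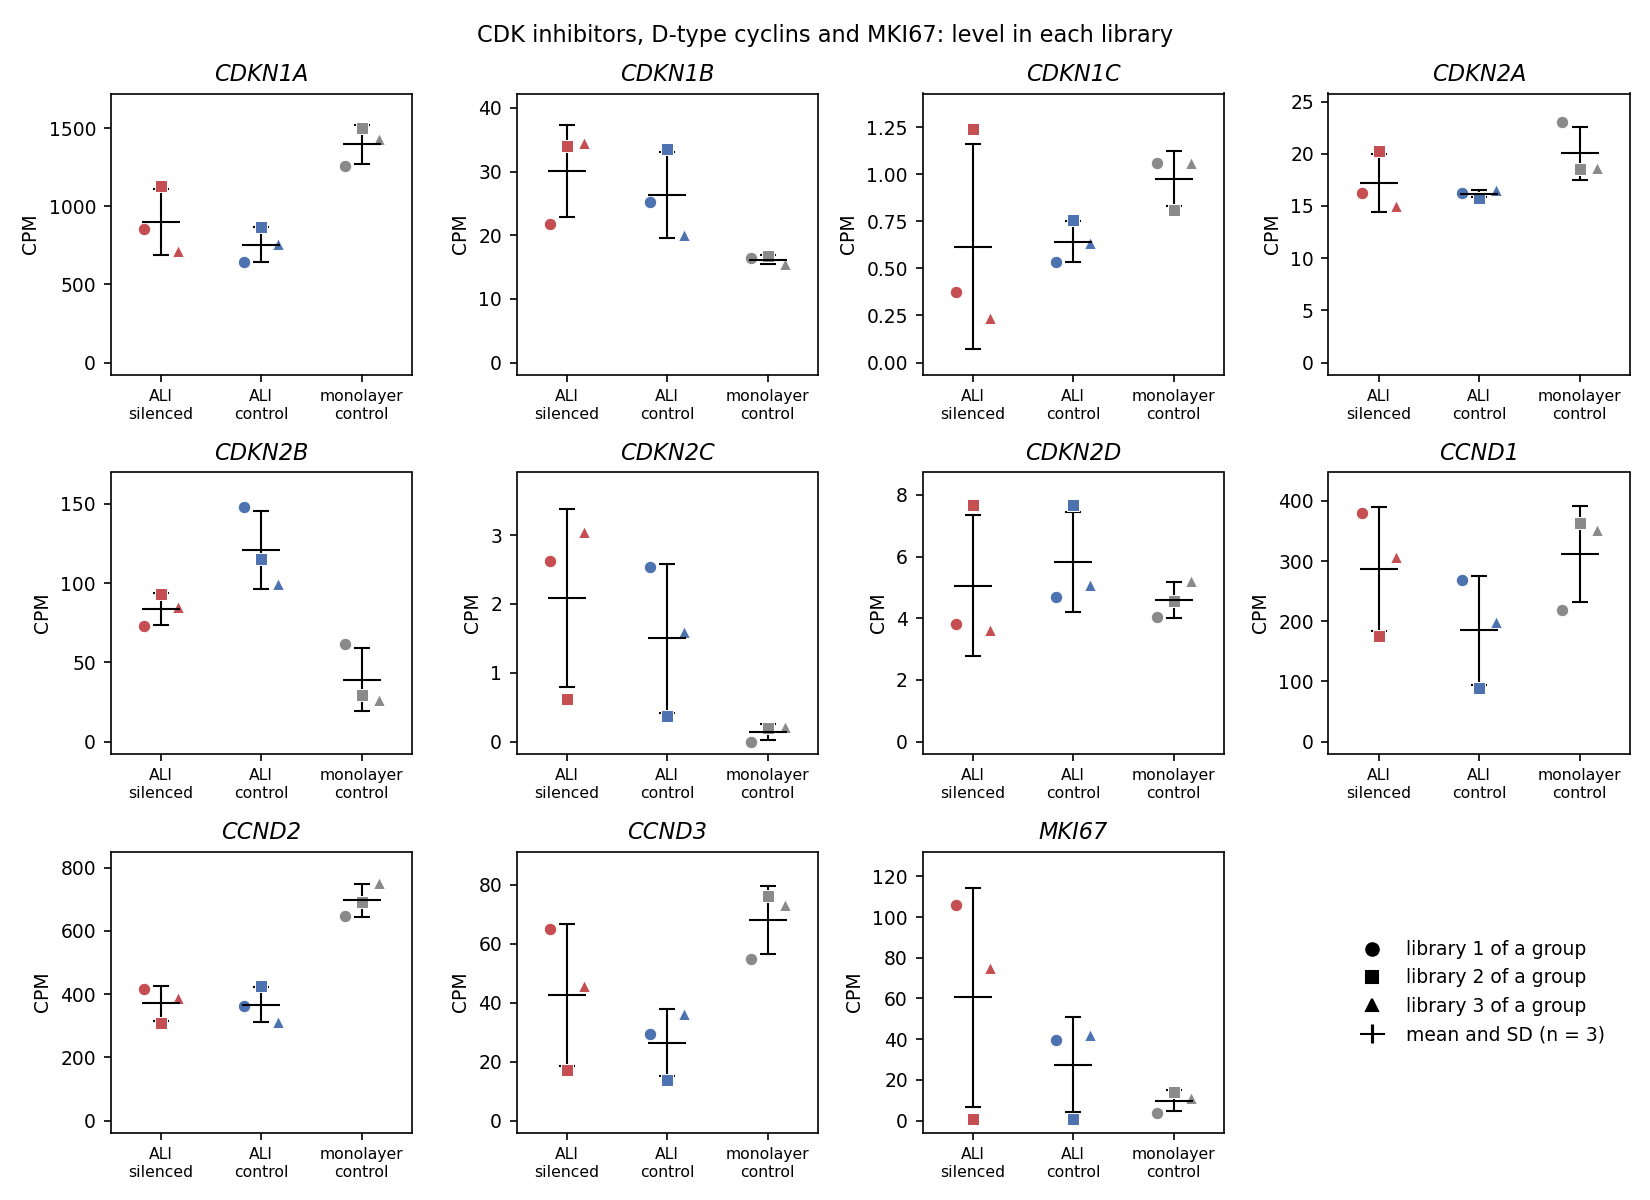
Level of each of the 10 genes and of MKI67 in CPM in ALI silenced, ALI control and monolayer control libraries; symbols are libraries 1, 2 and 3 of a group, and black bars are the mean and SD (n = 3). CDKN2B is highest in ALI control (99.5 to 148 CPM), and CCND1 and CCND3 are lowest in library 2 of each ALI arm.

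CDKN2B (chromosome 9, 22002902 to 22009312, minus strand, hg19) encodes p15INK4b, an INK4 inhibitor known as a target of transforming growth factor beta (TGF-beta). It had 72.9, 93.3 and 85.2 CPM in ALI silenced, 148, 115 and 99.5 CPM in ALI control, and 61.8, 29.1 and 26.3 CPM in monolayer libraries. The groups did not overlap, with ALI silenced between ALI control and monolayer. CDKN2B was higher in ALI control, at 121 ± 24.6 CPM, than in monolayer libraries, at 39.1 ± 19.7 CPM (SD, n = 3 each), and its log2 fold change was 1.63 (SE 0.33, adjusted p = 0.00348). It passed in all 19 alternatives of the analysis (1.04e-05 to 0.0192). Its log2 fold change for silencing was -0.53 (95% interval -1.24 to 0.18, adjusted p = 0.679, over alternatives 0.461 to 1), so the lower level in 3 of 3 ALI silenced libraries did not pass. It was the only 1 of the 10 genes whose ALI arms did not overlap, a pattern that 6.34% of all tested genes shared in the same direction. The antisense gene CDKN2B-AS1, on the opposite strand across the locus, had 0 to 7 counts a library. Whether the counting used strand is not known, so reads of the pair may not be separated.

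The 250 bases before the CDKN2B start that RefSeq gives (GRCh38.p14, chr9:22009306-22009555, minus strand) are shown because CDKN2B passed under every alternative. Capitals mark GC boxes, GGGCGG or its reverse complement CCGCCC on the strand shown.
CDKN2B: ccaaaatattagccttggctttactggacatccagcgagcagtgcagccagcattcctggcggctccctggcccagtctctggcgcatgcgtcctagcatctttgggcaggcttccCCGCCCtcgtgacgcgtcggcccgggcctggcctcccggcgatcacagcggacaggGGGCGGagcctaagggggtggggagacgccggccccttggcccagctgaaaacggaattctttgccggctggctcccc
The window holds 2 GC boxes and 1 CACCC box (CACCC, either strand). Of 35116 RefSeq windows of this length, 42.6% hold a GC box and 54.7% a CACCC box. These matches describe letters and show no binding.

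CDKN2A (chromosome 9, 21967751 to 21994490, minus strand) encodes p16INK4a and, from another first exon and reading frame, p14ARF, which binds MDM2. Its total was 16.2, 20.3 and 15.0 CPM in ALI silenced, 16.2, 15.8 and 16.5 CPM in ALI control, and 23.0, 18.5 and 18.6 CPM in monolayer libraries. The log2 fold change was 0.09 for silencing (95% interval -0.36 to 0.54) and -0.31 for differentiation (-0.76 to 0.14), with adjusted p = 0.905 and 0.238. With the row of the highest total alone, the differentiation value was -0.80 (adjusted p = 0.204). The split of the total between rows varied from library to library. The p14ARF row took 15.0, 46.3 and 59.4% of the gene's counts in ALI silenced, 71.9, 20 and 29.5% in ALI control, and 18.5, 10.4 and 13.1% in monolayer libraries. By this share all 3 ALI control libraries lay above all 3 monolayers, while the ALI arms overlapped. In CPM the row overlapped between ALI control (11.7, 3.15 and 4.86) and monolayer libraries (4.25, 1.92 and 2.45). Over the libraries of a group the p14ARF row held 239 of 597 counts in ALI silenced, 158 of 402 in ALI control and 102 of 683 in monolayer libraries. ALI control library 1 alone held 87 of the 158. Rows were not tested, because the sources used here do not give how reads of shared exons were split among them.

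CDKN2C (chromosome 1, 51434367 to 51440309, plus strand) encodes p18INK4c. It had 2.62, 0.618 and 3.04 CPM in ALI silenced, 2.54, 0.378 and 1.59 CPM in ALI control, and 0, 0.202 and 0.213 CPM in monolayer libraries. Every ALI library lay above every monolayer, and library 2 was lowest in both ALI arms. With 37 counts in the ALI control libraries against 4 in the monolayers, it was higher by 3.47 in log2 units (SE 1.04, adjusted p = 0.0233). The ratio of counts was 12.4 (95% exact interval 4.47 to 48.0, counting error only). CDKN2C passed the low-count filter through ALI libraries alone, so its test depends on the groups where it is high. The call was lost without ALI control library 1 (0.0773) and without monolayer library 1 (0.0766) or 2 (0.0528), and adjusted p was 0.000637 without both ALI libraries numbered 2. Summing monolayer libraries 2 and 3 also ended the call. For silencing the difference was 0.45 (95% interval -1.25 to 2.15, adjusted p = 0.870). CDKN2D (chromosome 19, 10677138 to 10679655, minus strand), the gene of p19INK4d, had 3.83, 7.69 and 3.63 CPM in ALI silenced, 4.69, 7.69 and 5.08 CPM in ALI control, and 4.04, 4.55 and 5.21 CPM in monolayer libraries. The 3 groups overlapped, and library 2 was highest in both ALI arms. Its log2 fold change was -0.19 for silencing (95% interval -0.99 to 0.61) and 0.34 for differentiation (-0.46 to 1.14), with adjusted p = 0.881 and 0.471. For differentiation it was 0.09 without ALI control library 2, 0.10 without both ALI libraries numbered 2, and 1.17 with the row of the highest total alone (adjusted p = 0.114). Its other row held 29 of 184 counts in ALI silenced, 0 of 144 in ALI control and 62 of 151 in monolayer libraries.

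CCND1 (chromosome 11, 69455873 to 69469242, plus strand) encodes cyclin D1, the D-type cyclin most tied to growth factor signals. It had 380, 176 and 306 CPM in ALI silenced, 268, 88.4 and 199 CPM in ALI control, and 219, 363 and 352 CPM in monolayer libraries. All 3 groups overlapped, and library 2 was lowest in both ALI arms. The log2 fold change was 0.63 for silencing (95% interval -0.29 to 1.56, adjusted p = 0.697) and -0.75 for differentiation (-1.67 to 0.17, adjusted p = 0.172). Without both libraries numbered 2 these were 0.55 (adjusted p = 0.313) and -0.41 (adjusted p = 0.171).

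CCND2 (chromosome 12, 4382902 to 4414522, plus strand) encodes cyclin D2. It had 415, 310 and 388 CPM in ALI silenced, 364, 425 and 312 CPM in ALI control, and 648, 692 and 752 CPM in monolayer libraries. Every ALI library lay below every monolayer, and the ALI arms overlapped. At 367 ± 56.5 CPM in ALI control and 697 ± 52.3 CPM in monolayer libraries (SD, n = 3 each), it was lower, with a difference of -0.92 in log2 units (SE 0.22, adjusted p = 0.00803). This passed in all 19 alternatives (5.45e-05 to 0.0343). For silencing the difference was 0.01 (95% interval -0.47 to 0.50, adjusted p = 0.988), the narrowest interval around 0 among the cyclins.

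CCND3 (chromosome 6, 41902671 to 42016610, minus strand) encodes cyclin D3, a D-type cyclin found in many differentiated tissues. It had 65.0, 17.2 and 45.7 CPM in ALI silenced, 29.3, 13.9 and 36.2 CPM in ALI control, and 54.9, 76.3 and 73.3 CPM in monolayer libraries. ALI control lay wholly below the monolayers, while ALI silenced overlapped both. The log2 fold change was -1.36 for differentiation (SE 0.47, adjusted p = 0.0399) and 0.68 for silencing (95% interval -0.34 to 1.71, adjusted p = 0.704). The differentiation call was lost without ALI silenced library 3 (0.0618), ALI control library 1 (0.0803) or 2 (0.0976), or monolayer library 1 (0.0618), 2 (0.107) or 3 (0.0974). Summing monolayer libraries 2 and 3 also ended that call. Without both ALI libraries numbered 2 the differentiation difference was -1.05 (adjusted p = 0.00171), and the silencing difference was 0.76 (adjusted p = 0.0897).

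The counts of CCND3 were deposited in 2 rows, which differed in their pattern over libraries. The row with the downstream start (41909552) had 57.5, 9.48 and 38.7 CPM in ALI silenced, 25, 3.15 and 28.4 CPM in ALI control, and 45.0, 75.5 and 71.3 CPM in monolayer libraries. The row with the start 107058 bases upstream (42016610) had 7.57, 7.76 and 6.91 CPM in ALI silenced, 4.29, 10.7 and 7.72 CPM in ALI control, and 9.91, 0.809 and 2.02 CPM in monolayer libraries. The downstream row was lowest in library 2 of each ALI arm, and the upstream row was not. The upstream row took 77.3% of the gene's counts in ALI control library 2 and 45.0% in ALI silenced library 2, against 11.6 to 21.3% in the other ALI libraries. With the downstream row alone, the differentiation difference was -1.76 and did not pass (adjusted p = 0.0971).

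RefSeq lists 3 windows for CCND3, of which the 2 most upstream lie 106880 bases apart. Their 250 bases before the start are shown because the rows that differ between libraries begin at separate starts. Both are from chromosome 6 of GRCh38.p14, minus strand. Of these 2 windows the upstream is chr6:42048689-42048938 and the downstream is chr6:41941809-41942058. The third window, chr6:41939206-41939455, lies further downstream, holds 0 GC boxes and 2 CACCC boxes, and is not shown. Capitals again mark GC boxes.
CCND3 upstream: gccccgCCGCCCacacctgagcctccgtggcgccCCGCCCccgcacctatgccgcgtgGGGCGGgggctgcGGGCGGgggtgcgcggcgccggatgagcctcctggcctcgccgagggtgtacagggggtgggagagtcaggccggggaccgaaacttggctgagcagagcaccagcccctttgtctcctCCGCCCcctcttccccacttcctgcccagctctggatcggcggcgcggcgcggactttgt
CCND3 downstream: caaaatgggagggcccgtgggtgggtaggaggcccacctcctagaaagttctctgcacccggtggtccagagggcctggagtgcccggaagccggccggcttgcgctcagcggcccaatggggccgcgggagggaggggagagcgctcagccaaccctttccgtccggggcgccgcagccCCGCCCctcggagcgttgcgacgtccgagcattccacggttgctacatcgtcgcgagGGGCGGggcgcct
The upstream window holds 5 GC boxes and 3 CACCC boxes, and the downstream window 2 and 2. The windows were not matched to the rows by coordinates, which belong to another build.

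**Figure D3:**
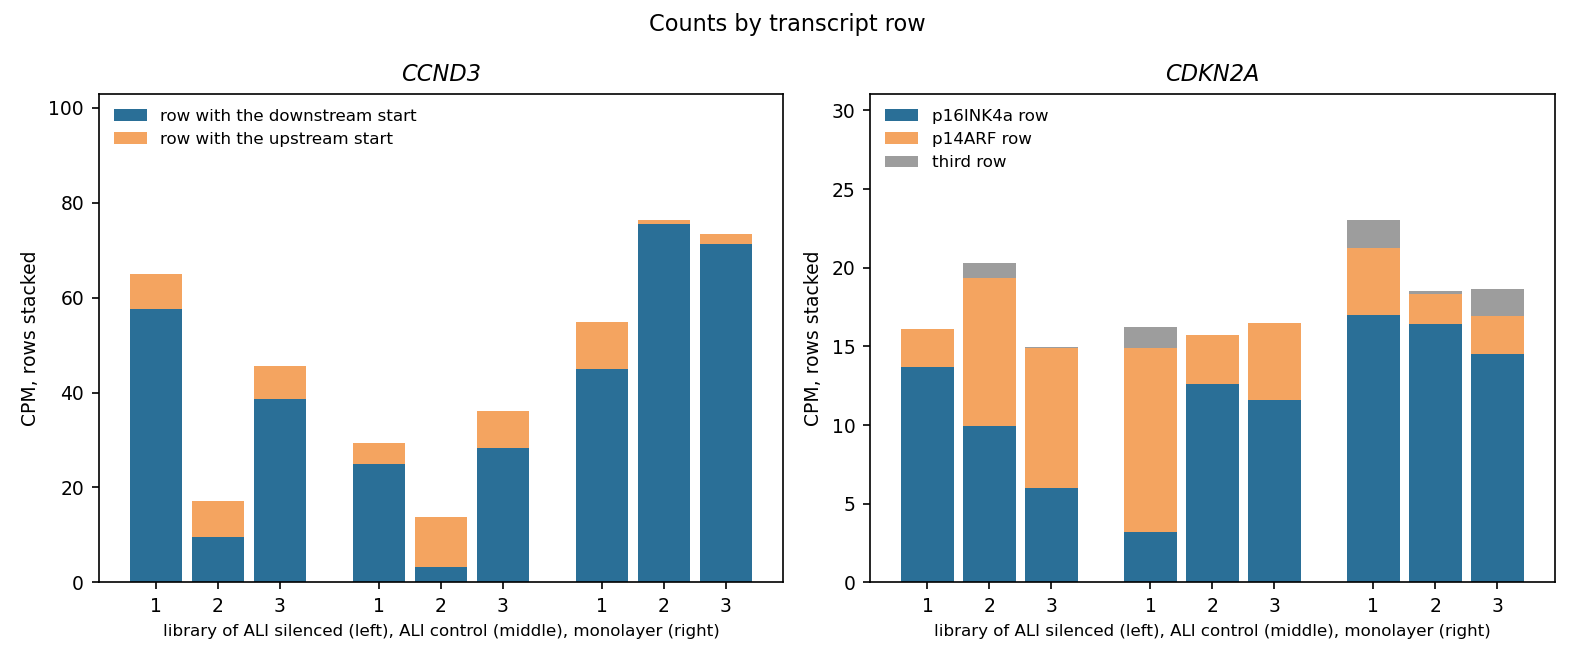
CPM of the transcript rows of CCND3 (left) and CDKN2A (right), stacked for each library of ALI silenced, ALI control and monolayer. For CCND3, the downstream row is at 9.48 and 3.15 CPM in library 2 of the ALI arms, against 25 to 57.5 CPM in the other ALI libraries; for CDKN2A, the p14ARF row takes 10.4 to 18.5% in monolayers.

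Levels of different genes were compared only per length, as the authors' RPKM values (reads scaled to transcript length and to library size) summed over the rows of a gene. CDKN1A led in all 9 libraries, with 360 ± 90.2 RPKM in ALI silenced, 276 ± 26.1 RPKM in ALI control and 581 ± 54.4 RPKM in monolayer libraries (SD, n = 3 each). In ALI control, CCND2 (44.5 ± 4.17 RPKM), CCND1 (35.0 ± 18.6) and CDKN2B (24.9 ± 5.78) followed. The ranges of CCND2 and CCND1 overlapped (39.7 to 47.5 and 15.0 to 51.7 RPKM), as did those of CCND1 and CDKN2B (21.4 to 31.6 RPKM for CDKN2B), while CDKN2B lay above CCND3 (5.44 to 15.0 RPKM) in all 3 libraries. CCND3, CDKN2A and CDKN1B lay at 10.8 ± 4.88, 10.7 ± 1.17 and 8.56 ± 1.61 RPKM, each overlapping the next. CDKN2D stood apart at 4.07 ± 0.797 RPKM. CDKN2C and CDKN1C were lowest, at 0.714 ± 0.467 and 0.397 ± 0.0203 RPKM, and overlapped. In the monolayers the cyclins took the next places after CDKN1A, with CCND2 at 96.1 ± 7.85, CCND1 at 65.3 ± 17.1 and CCND3 at 30.2 ± 5.32 RPKM, ahead of CDKN2A at 14.7 ± 1.79 and CDKN2B at 9.08 ± 4.49 RPKM, the last pair overlapping. CDKN2B ranked 4, 3 and 4 among the 10 in ALI control libraries 1, 2 and 3, and 6 in each monolayer.

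**Figure D4:**
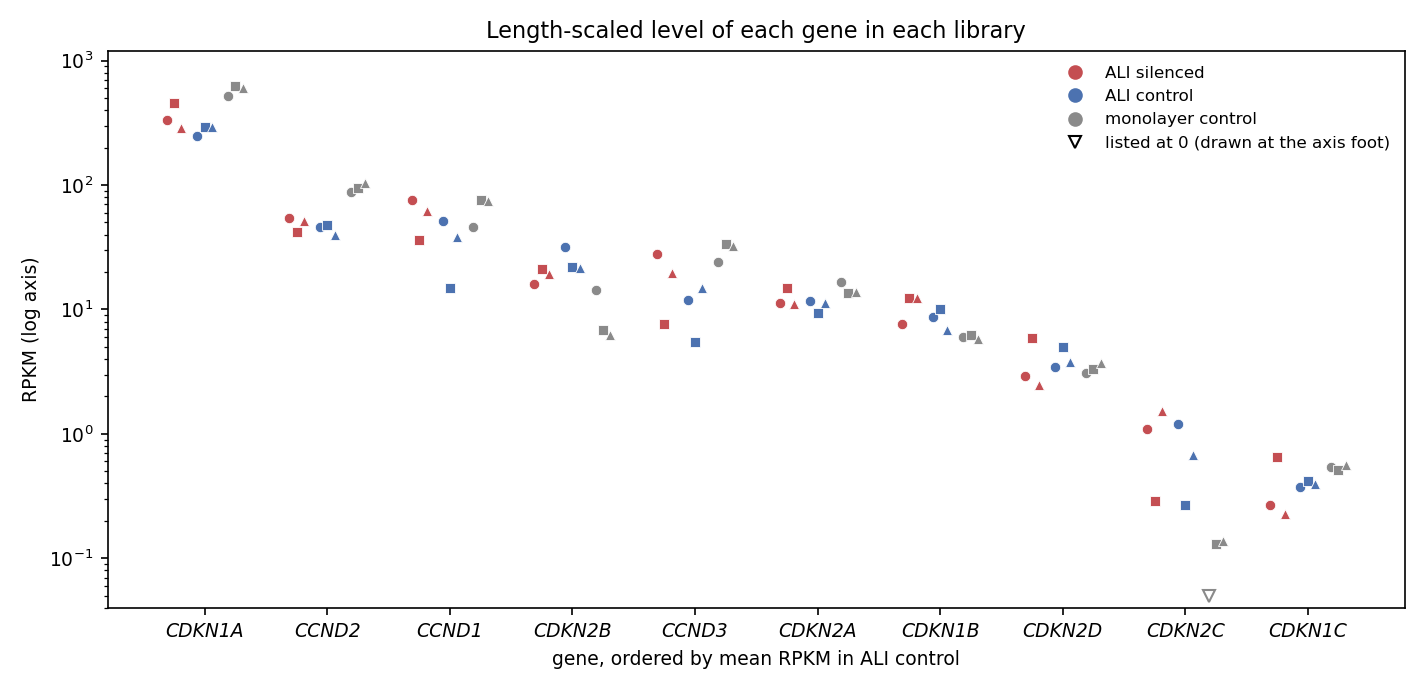
RPKM of each gene on a log axis, with genes ordered by their mean in ALI control; colours are groups and symbols are libraries 1 (circle), 2 (square) and 3 (triangle). CDKN1A is highest in all 9 libraries (246 to 623 RPKM), and CDKN2C is listed at 0 in monolayer library 1.

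Among 20 other genes of the CDK, RB and E2F pathway, 4 were higher and 2 lower in ALI control than in monolayer libraries, against 20.3% and 20.2% of all genes, with a median log2 fold change of 0.28. E2F1, E2F2 and E2F8 were among the 4 higher, and E2F7 and E2F3 were the 2 lower. E2F4, E2F5 and E2F6 did not pass (adjusted p = 0.493, 0.398 and 0.317), and these and E2F3 are named after their values were seen. E2F2 was at 7.77, 4.92 and 9.52 CPM in ALI control against 0.142, 0.101 and 0.106 CPM in monolayer libraries (log2 fold change 5.82, adjusted p = 0.000177). E2F8, with 39 counts in ALI control and 0 in the monolayers, was at least 17.5-fold higher (against a floor of 3 counts over the group, adjusted p = 0.00843). E2F2 had 4 counts and E2F1 had 25 in the monolayers. Of the 4 higher genes, E2F1, E2F2 and E2F8 passed the low-count filter through ALI libraries alone. Their tests thus depend on the groups where they are high. E2F1 was higher by 2.18 (adjusted p = 0.02). E2F7, which like E2F8 represses E2F targets, had a log2 fold change of -2.34, at 14.3, 14.8 and 10.7 CPM in ALI control and 58.1, 72.7 and 71.2 CPM in monolayer libraries (adjusted p = 2.71e-05). The 4 higher genes were 2 without ALI control library 3 or monolayer library 1 or 2, and 8 without both ALI libraries numbered 2 (against 3222 of all 12931 genes then tested). The 2 lower genes were 1 without ALI control library 2 or 3, ALI silenced library 3 or any 1 monolayer. With monolayer libraries 2 and 3 summed, 2 were higher and 1 lower. For silencing, 0 of 20 passed (1 at an unadjusted p under 0.05, E2F7, at 0.76 with adjusted p = 0.148), DESeq2 called 1 and limma-voom 0, and 3 were called higher without both libraries numbered 2, against 280 of all 12931 genes.

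Proliferation genes gave no calls for silencing (0 of 21 with edgeR, 2 at an unadjusted p under 0.05, the replication licensing genes MCM7 and MCM2 at 0.96 and 0.94 with adjusted p = 0.276 and 0.543). DESeq2 and limma-voom called 0 of 21 too. Their median log2 fold change was 1.22, against 0.01 over all genes, with 21 of 21 positive. The 21 rest on the same 3 libraries a group, so their signs are not 21 separate results. The median was 0.64 with limma-voom, 0.68 without ALI silenced library 1 and 0.79 without ALI control library 2. Without ALI silenced library 2 it was 1.76, with 2 genes called. Their summed level was 1000, 188 and 971 CPM in ALI silenced, 426, 235 and 488 CPM in ALI control, and 267, 315 and 308 CPM in monolayer libraries. Without both ALI libraries numbered 2, 13 of 21 were called higher, against 280 of all 12931 genes then tested. Those libraries hold the least MKI67, a gene of this list, so that count is not independent of the choice of libraries left out. For differentiation 0 of 21 passed as higher and 1 as lower, against 20.3% and 20.2% of all genes. The 1 was TYMS (thymidylate synthase), at -1.73 (adjusted p = 0.0233), a call lost without ALI control library 1 or 2 or any 1 monolayer. Summing monolayer libraries 2 and 3 also ended the TYMS call. Without both libraries numbered 2, and with the same limit, 13 were called higher and 1 lower, against 3222 and 3329 of all 12931 genes.

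Of 26 regulators of these genes or their proteins, 5 were higher and 1 lower after differentiation, against 20.3% and 20.2% of all genes. The squamous factor KLF4, which can activate CDKN1A, was at 199, 170 and 152 CPM in ALI control and 98.7, 48.5 and 48.6 CPM in monolayer libraries (1.41, adjusted p = 0.00407). USP2, whose product spares cyclin D1 from breakdown, was higher by 4.57 (adjusted p = 8.53e-05), and ID1, a repressor of CDKN2A, by 2.4 (adjusted p = 0.000435). USP2 had 204 counts in ALI control and 11 in monolayer libraries. It passed the low-count filter through ALI libraries alone, so its test depends on the groups where it is high. DESeq2 called 6 higher and 4 lower, and limma-voom 4 higher and 3 lower. The 5 were 3 without monolayer library 1, and the 1 was 2 without ALI control library 1 and 3 without library 2. Without both ALI libraries numbered 2 they were 9 and 4. None of the 26 passed for silencing (2 at an unadjusted p under 0.05, and 0 with DESeq2 or limma-voom).

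Of 10 genes of the TGF-beta pathway, 8 were lower and none higher in ALI control than in monolayer libraries, against 20.2% and 20.3% of all genes, with a median of -2.25. The list does not hold CDKN2B, and any part of the pathway in the level of CDKN2B was not tested. They included PMEPA1, a feedback inhibitor of the pathway (log2 fold change -3.10, adjusted p = 1.13e-05), LTBP2 (-3.03) and TGFBI (-2.53). For silencing 0 of 10 passed, with 1 at an unadjusted p under 0.05 and 0 called by DESeq2 or limma-voom.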

How the data were processed

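RNA was measured in 9 polyA-selected, stranded libraries, per the labels' protocols. The submitters' processing notes name hg19, STAR 2.4.2a, Bowtie and MACS2, with no roles. Which counter was run, and whether it used strand, is not given in the sources used here. The deposited read counts per transcript row were not normalized, and the authors' RPKM values were used as deposited, for levels between genes only. Rows of a symbol and chromosome were summed here.

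Gene counts went into edgeR 4.0.16 (R 4.3.3) with TMM factors, filterByExpr by group, 1 robust quasi-likelihood model for the 9 libraries, and Benjamini-Hochberg adjustment over 12806 genes. CPM are counts per TMM-adjusted library size. An SE is the log2 fold change over the root of F, and 95% intervals use the test's degrees of freedom (about 10.1 for most members). Single rows were tested only in the alternative that keeps the row with the highest total, and levels between genes and promoter matches were not tested. Alternatives were DESeq2 1.42.0, limma-voom 3.58.1, scaling, filters, counting, subsets and each library left out.

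The members, the lists and the alternative without both ALI libraries numbered 2 were chosen with earlier results of these data known. Other named genes are up to 4 of a list that passed with the largest change (with none past the threshold, up to 2 with the lowest p), given only where they bear on the members, and up to 2 nearest genes. Some genes and 1 list that this rule takes are not reported here. Of promoter windows, 7 of 10 members matched by symbol, and CDKN1C, CCND1 and CCND2 did not. Monolayer libraries 2 and 3 differed least (chi-square per degree of freedom 1.905, against 16.8 to 160 for other pairs of a group) but by more than sampling noise, and were counted as 2. That excess does not show separate cultures, so they were also summed as 1 in an alternative.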

Additional observations from a re-analysis of the deposited data

How the results depend on the processing

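The call on CDKN2B and CCND2 for differentiation passed under all 19 alternatives, and none of the 10 genes passed for silencing under any of them. For differentiation the 2 members called higher were 1 with limma-voom, the stricter filter (at least 20 counts in 3 libraries), the fit on the contrast's 2 groups, the row with the highest total, and monolayer libraries 2 and 3 summed; the 3 called lower were 1 with those libraries summed. Leaving out each library gave 1 to 3 higher and 1 to 3 lower. CDKN1C failed the stricter filter and that of the fit on 2 groups, and CDKN2C failed the stricter filter and, for differentiation, that of the fit on 2 groups, so they have no value there. CDKN2C lost its call with limma-voom (adjusted p = 0.0505), the highest row (0.0757) and the summed monolayers, CDKN1A with the summed monolayers (0.0650) and CCND3 too (0.100); the cause was not tested.

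Over all genes, silencing gave 29 higher and 90 lower calls. They were 140 and 275 with DESeq2, 280 and 428 without both ALI libraries numbered 2, and 5 and 54 on 2 groups. The higher calls were 45 with no filter, 51 with the replicate block and 9 with monolayer libraries 2 and 3 summed. Leaving out each library gave 3 to 92 higher and 25 to 147 lower. Same-numbered ALI libraries deviated together for numbers 1 and 2 (correlation 0.49 and 0.58) but not 3 (-0.01). ALI silenced library 1 and ALI control library 3 did so too (0.64). Same-numbered ALI control and monolayer libraries were at -0.22 to -0.01. Deviations from a mean of 3 libraries constrain each other, so these values cannot settle whether the numbers pair libraries. The replicate block changed no call on the 10 genes.

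Small silencing differences turned sign. CCND2 was -0.01 with DESeq2 and with its size factors, -0.09 to 0.13 with 1 library left out, and 0.25 without both ALI libraries numbered 2. CDKN1C was -0.01 with DESeq2, -0.27 with limma-voom, -0.10 with the block and -0.90 without both libraries numbered 2, with -1.04 to 0.35 over all. CDKN2A was -0.07 without both, and -0.07 to 0.17 over all. CDKN2C reached -0.01 and CDKN2D 0.06 without ALI control library 2, with ranges of -0.01 to 1.03 and -0.65 to 0.06. Depth limits CDKN1C and CDKN2C, with 16 and 37 counts in ALI control.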

Other observations

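Genes next to the members were measured too. At 9p21, both tested neighbours of CDKN2A and CDKN2B were higher in ALI control than in monolayer libraries, a direction called for 20.3% of all genes. MTAP (methylthioadenosine phosphorylase) was at 92.4, 72.6 and 84.8 CPM in ALI control against 45.9, 51.2 and 55.0 CPM in monolayers (log2 fold change 0.72, adjusted p = 0.0155). DMRTA1, on the other side, was higher by 1.14 (adjusted p = 0.00401). Of these 2 calls, 1 was lost without ALI control library 1 or monolayer library 1 or 2. In the imprinted 11p15 region that holds CDKN1C, 1 of 6 tested neighbours was higher and 2 lower, against 20.3% and 20.2% of all genes, with 1 to 3 lower over the libraries left out in turn. The noncoding RNA H19 was at 10.9, 6.05 and 13.6 CPM in ALI silenced, 36.4, 13.6 and 61.3 CPM in ALI control, and 9.42, 3.95 and 4.36 CPM in monolayer libraries. It was higher in ALI control than in monolayers by 2.63 (adjusted p = 0.00460), and its difference on silencing did not pass (-1.88, adjusted p = 0.182). The growth factor gene IGF2 had 1 count in ALI control libraries against 210 in monolayers, a ratio of 0.00640 (95% exact interval 0.000161 to 0.0360, counting error only), and monolayer library 1, at 13.1 CPM, held most of them, against 1.42 and 1.17 CPM in libraries 2 and 3. KCNQ1OT1 was lower, at -2.0 in log2 units (adjusted p = 0.0270).

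The genes whose pattern over the 9 libraries was nearest to a member were found by the root mean square difference of centred log2 CPM among 10558 genes. For CDKN2B they were KLF4 (0.23) and TMEM117 (0.26), with CDKN2B itself varying by 0.80 (SD). For CCND1 they were C10orf47 (0.14) and WDR1 (0.15), for CCND2 EFEMP1 (0.08) and PRKD3 (0.12), and for CCND3 FHL3 (0.16) and MYH10 (0.17). The libraries share 3 groups, so such likeness follows group differences as well as library differences.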
